A study of Mus musculus with 6 samples.

Results

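The 41 genes described here encode proteins of mismatch repair (4 genes), base excision and strand-break repair (14), nucleotide excision repair (9) and end joining (9), and the damage kinases with the adaptor Mdc1 (5). They were taken by gene symbol from the 24421 genes of the deposited count table, and each of the 41 was found and passed the filter on low counts. RNA was sequenced from primary adult neural stem cells of wild-type C57BL/6 mice at postnatal day 60, derived from the subventricular zone, where new neurons are made in the adult brain. The cells grew with FGF2 and EGF at 20 ng/ml each, in medium that was renewed after 24 h. The 3 PluriSIn#2 libraries came from cells given 20 µM of the compound for 3 days, and the 3 DMSO libraries from cells given its solvent. PluriSIn#2 is described by the submitters as a specific inhibitor of topoisomerase IIA, the enzyme that passes one DNA duplex through a transient break in another. The treatment field of PluriSIn#2 replicates 2 and 3 carries the names PluriSIn#3 and PluriSIn#4, while their titles say PluriSIn#2, so results are also given with PluriSIn#2 replicate 1 alone where they differ. The labels name no separate cultures or animals behind the replicates; the spread that the p-values measure is that of these libraries and may be technical.

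Each of these pathways answers a different kind of DNA lesion. Mismatch repair removes bases mispaired during replication. Base excision repair cuts out single damaged bases, nucleotide excision repair removes bulky adducts that distort the helix or stall RNA polymerase, and end joining reseals broken chromosomes without a template. The kinases Atm and Atr sense breaks and stalled forks and pass the signal to Chek2 and Chek1, which hold the cell cycle. Type IIA topoisomerases trapped on DNA leave breaks that several of these pathways handle.

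The libraries held 16670962 to 17827158 counts in PluriSIn#2 and 18186070 to 19241869 in DMSO. Levels are in CPM, the usual depth-scaled count, with TMM factors. The 10 markers listed for neural stem cells and progenitors were all detected, but 7 of them fell and 2 rose, with summed levels of 5635 to 5704 CPM in PluriSIn#2 and 7477 to 7601 CPM in DMSO. Nes fell by 1.44, Egfr by 1.31 and Fabp7 by 1.23 on the log2 scale, and Sox9 and Vim were the risers. The 8 markers of dividing cells all fell, their summed level being 97.9 to 107 CPM in PluriSIn#2 and 3493 to 3553 CPM in DMSO. Top2a, which encodes a type IIA topoisomerase, was among them, with 5.58, 7.46 and 4.98 CPM in PluriSIn#2 and 853, 887 and 892 CPM in DMSO. Mki67, a proliferation marker, had 2.99, 3.18 and 3.40 CPM in PluriSIn#2 and 1016, 1027 and 1017 CPM in DMSO. Astrocyte markers were higher (8 of 8, summed 6621 to 6648 CPM in PluriSIn#2 and 3509 to 3543 CPM in DMSO), and so were 10 of the 10 tested markers of macrophages (159 to 166 CPM in PluriSIn#2 and 7.54 to 8.16 CPM in DMSO, with Trem2 at 0 in every DMSO library). All of these macrophage markers but Lyz2 and Cd68 passed the filter on low counts through their treated values alone. For those markers only a rise could be called, and Cx3cr1 and Aif1 were not tested. Of 9 fibroblast and mural markers 8 rose (235 to 240.1 CPM in PluriSIn#2 and 33.7 to 35.3 CPM in DMSO), of 6 endothelial markers 5 rose (27.1 to 30.5 CPM in PluriSIn#2 and 5.07 to 5.79 CPM in DMSO), and all 4 tested ependymal markers rose (636 to 655 CPM in PluriSIn#2 and 35.7 to 36.5 CPM in DMSO). Most of that treated sum is Ttr, also a choroid plexus transcript, with a mean of 500.5 CPM in PluriSIn#2 and 1.89 CPM in DMSO, while Foxj1 had 144 CPM in PluriSIn#2 and 34.1 CPM in DMSO. Dcn, Lum, Cdh5, Cldn5, Pifo and Ccdc153 likewise passed the filter through their treated values alone, and Gpr17 through its DMSO values alone. Col1a2 and Col3a1 did not reach the filter's level in every DMSO library, nor did the dividing-cell marker Aurkb in every PluriSIn#2 library. All 5 oligodendrocyte precursor markers fell, to 91.0 to 96.7 CPM in PluriSIn#2 against 288 to 297 CPM in DMSO, and of 6 neuronal markers 3 rose and 1 fell (455 to 462 CPM in PluriSIn#2 and 929.9 to 979.8 CPM in DMSO). Most of the neuronal sum is Map2, the marker that fell, with a mean of 383 CPM in PluriSIn#2 and 892 CPM in DMSO. The neuronal risers were Rbfox3, Syt1 and Snap25. The shares of all tested genes called were 41.7% higher and 40.9% lower, and 3 risers of 6 neuronal markers is near the first. The part that these shifts in dividing and other cells play in the repair genes was not tested, and in bulk RNA fewer cells of a type and less RNA per cell cannot be told apart.

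Setting PluriSIn#2 against DMSO compares cells given the compound with cells given its solvent; inhibition of the enzyme was not measured here. Most of the 41 repair genes were lower in the treated cells: 29 fell, 6 rose and 6 were not called in edgeR's quasi-likelihood test (Benjamini-Hochberg adjusted p under 0.05, over all 14417 genes tested). Over all tested genes 82.6% were called in either direction, 40.9% lower and 41.7% higher. Falls of at least 2-fold were found for 14 of the 41 genes, where 11.7% of all tested genes fell that far. A rise of at least 2-fold was found for 1 of them, Neil2, against 16.3% of all tested genes. Neil2 passed the filter on low counts through its treated values alone. In each of the 35 called genes the PluriSIn#2 and DMSO values in CPM did not overlap, and in the 6 others they did. For Neil1 the gap was narrow, from 12.01 CPM in PluriSIn#2 to 12.04 CPM in DMSO, and in FPKM its groups overlapped. The groups did not overlap in 82.7% of all tested genes, 40.9% with PluriSIn#2 lower and 41.8% with it higher. With upper quartile factors 10 of the 41 rose, where 47.3% of all tested genes did, and with the replicate number as a block 29 fell and 6 rose, where 40.7% and 41.5% of all tested genes did. The median log2 fold change of the 41 was -0.54, beside 0.01 over all genes tested.

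The pathways differed in these counts. All 5 damage-signalling genes fell by at least 2-fold, with a median log2 fold change of -1.91. In base excision repair 11 of 14 fell and 3 rose (median -0.97), in mismatch repair 3 of 4 fell and 1 rose (median -0.64), and in end joining 6 of 9 fell and none rose (median -0.46). Over all tested genes 40.9% fell and 41.7% rose, with a median of 0.01. Nucleotide excision repair had 4 of 9 lower (44.4%, near the share of all tested genes), 2 higher and 3 not called. Its median of -0.05 stood nearest to no change. That median lay so close to 0 that its sign turned with the scaling, being 0.02 with library totals alone and 0.06 with upper quartile factors, which move the median of all tested genes to 0.08 and 0.12. In no pathway but the damage kinases did every member fall by at least 2-fold: the counts were 6 of 14 in base excision repair, 1 of 4 in mismatch repair, 2 of 9 in end joining and 0 of 9 in nucleotide excision repair. Of all tested genes 11.7% fell that far.

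**Figure D1:**
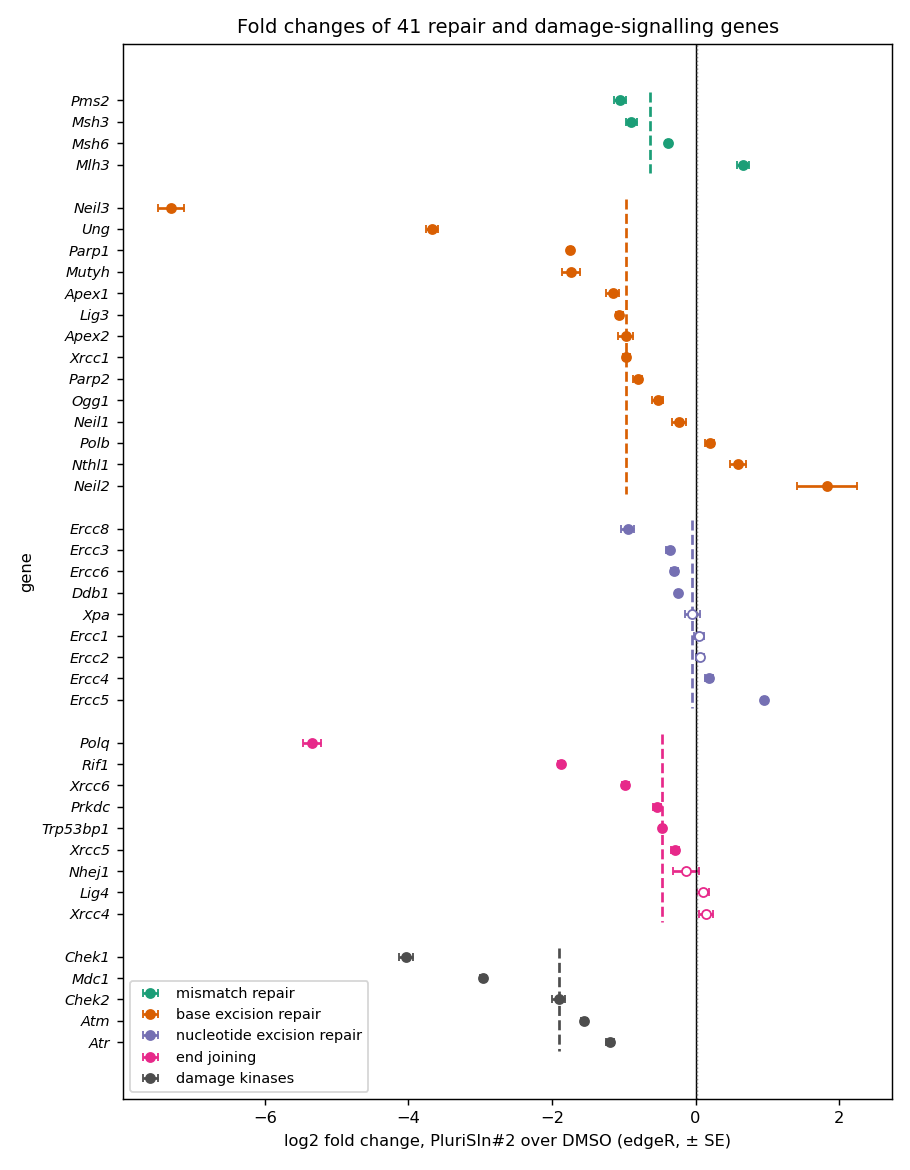
Log2 fold change of each of the 41 genes in PluriSIn#2 over DMSO (points, ± SE from edgeR), grouped by pathway, with open points for genes not called, a dashed line at each pathway's median and a dotted line at the median of all tested genes. The damage kinases lie wholly at or below -1.19, while nucleotide excision repair genes lie between -0.95 and 0.96.

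**Figure D2:**
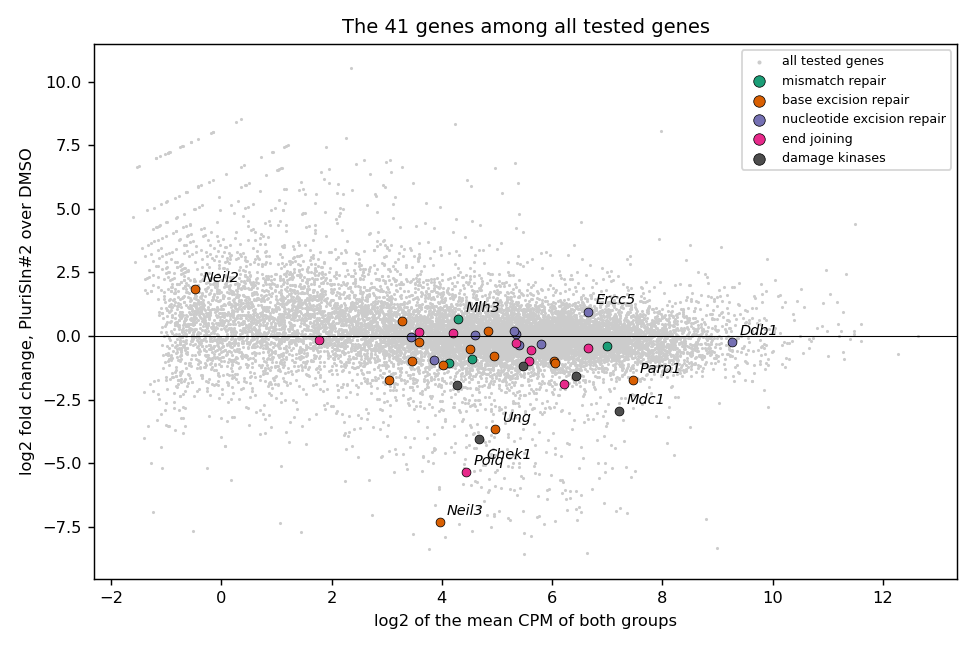
Log2 fold change in PluriSIn#2 over DMSO against the log2 of the mean CPM of both groups, for all 14417 tested genes (grey) and the 41 repair genes (coloured by pathway). Neil3, at -7.31, lies among the lowest genes, and Neil2 is the repair gene with the lowest level.

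Neil3 stood near the bottom of the whole transcriptome, since 0.104% of tested genes had a lower log2 fold change. For Polq that share was 0.59%, for Chek1 1.23%, for Ung 1.44% and for Mdc1 2.08%. At the upper end, 82.9% of tested genes had a lower log2 fold change than Ercc5, and 93.1% a lower one than Neil2. Neil3 and Neil2 passed the filter on low counts only through the group where each was higher.

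The genes differ in their upstream sequence as well. RefSeq start sites on GRCm38.p6 were matched for 35 of the 41 genes, and the 250 bases before each were searched on both strands for the E2F words TTTCCCGC, TTTGGCGC, TTTGCCGC and TTTCGCGC. E2F factors are activators and repressors of genes needed for DNA synthesis. A match was found upstream of 5 of the 35 repair genes (14.3%) and of 366 of 10891 tested genes with a promoter (3.36%). Among all genes that fell at least 2-fold, 7.19% of promoters held a match, and among the 13 repair genes of that kind 2 did (15.4%), Mdc1 and Chek2. The other matches were upstream of Xrcc6 and Msh3, which fell, and of Nthl1, which rose. Neil3, Polq, Chek1 and Ung, the genes with the largest falls of the 41, had no match in this window. The 6 sequences that follow are the 5 windows with a match and that of Neil3, shown because it fell most without one; capitals mark the matched words, and the 2 matches of Msh3 overlap. They run 5′ to 3′ on the strand of the gene and lie at chr17:35841248-35841497 (plus), chr5:110839733-110839982 (plus), chr15:82016119-82016368 (plus), chr13:92355004-92355253 (minus), chr17:24632432-24632681 (plus) and chr8:53639066-53639315 (minus).
Mdc1: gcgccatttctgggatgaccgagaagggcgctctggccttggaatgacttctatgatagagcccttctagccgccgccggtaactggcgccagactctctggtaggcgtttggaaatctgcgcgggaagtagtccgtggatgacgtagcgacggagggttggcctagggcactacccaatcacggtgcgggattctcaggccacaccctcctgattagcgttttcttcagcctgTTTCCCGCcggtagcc
Chek2: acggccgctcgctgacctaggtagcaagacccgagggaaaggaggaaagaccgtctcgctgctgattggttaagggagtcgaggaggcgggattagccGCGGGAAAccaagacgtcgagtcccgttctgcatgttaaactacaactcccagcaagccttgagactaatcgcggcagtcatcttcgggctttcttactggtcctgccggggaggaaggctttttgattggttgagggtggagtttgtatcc
Xrcc6: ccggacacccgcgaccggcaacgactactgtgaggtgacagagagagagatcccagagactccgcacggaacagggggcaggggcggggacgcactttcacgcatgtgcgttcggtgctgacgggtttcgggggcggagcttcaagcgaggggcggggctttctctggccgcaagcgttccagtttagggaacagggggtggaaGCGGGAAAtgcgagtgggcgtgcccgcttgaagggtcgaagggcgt
Msh3: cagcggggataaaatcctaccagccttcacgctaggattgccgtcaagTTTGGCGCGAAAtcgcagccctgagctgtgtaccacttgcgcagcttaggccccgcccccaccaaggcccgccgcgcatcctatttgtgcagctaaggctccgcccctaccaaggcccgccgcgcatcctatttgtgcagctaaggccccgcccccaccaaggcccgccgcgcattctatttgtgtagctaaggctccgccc
Nthl1: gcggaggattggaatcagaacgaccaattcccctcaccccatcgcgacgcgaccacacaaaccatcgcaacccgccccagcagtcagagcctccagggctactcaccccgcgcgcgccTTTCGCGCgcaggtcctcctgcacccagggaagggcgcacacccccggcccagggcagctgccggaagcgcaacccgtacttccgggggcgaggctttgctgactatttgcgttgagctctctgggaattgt
Neil3: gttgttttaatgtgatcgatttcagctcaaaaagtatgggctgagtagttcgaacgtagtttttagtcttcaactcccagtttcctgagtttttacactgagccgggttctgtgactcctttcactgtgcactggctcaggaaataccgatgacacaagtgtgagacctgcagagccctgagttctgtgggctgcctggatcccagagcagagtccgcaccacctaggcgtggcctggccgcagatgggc

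In Mdc1 the word ran from base -16 to -9 before the start, in Chek2 from -152 to -145, in Xrcc6 from -46 to -39 and in Nthl1 from -132 to -125. Those of Msh3 ran from -202 to -195 and from -198 to -191. The word CCAAT, bound by the factor NF-Y, stood in 17 of the 35 windows (48.6%) and in 36.4% of all tested promoters. All 4 risers with a window held it (Ercc4, Nthl1, Mlh3 and Ercc5), as did 11 of the 25 repair genes that fell (44.0%). Over all tested genes it was no more frequent among risers (34.7%) than among those that fell (37.6%). The word TTTGAA, the core of the cell cycle homology region of mitotic genes, stood in 2 of the 35 (5.71%), Polq and Ercc5, and in 9.97% of all. A match shows letters in a window and not a bound site.

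The damage kinases fell together. Chek1, the kinase that halts the cycle when forks stall, had 2.88, 3.23 and 2.69 CPM in PluriSIn#2 against 46.5, 48.9 and 49.4 CPM in DMSO. Every treated library lay far below every DMSO library, a 16.4-fold fall (log2 fold change -4.03, SE 0.0943, edgeR adjusted p = 2.64e-57). The gene lies on the minus strand of chromosome 9, from 36708482 to 36727065 (spans of genes are from GENCODE M21 on GRCm38, also called mm10). Chek2, which receives the signal of Atm, had 8.35, 8.22 and 8.02 CPM in PluriSIn#2 and 33.5, 31.2 and 27.7 CPM in DMSO. The fall was 3.75-fold, without overlap of the groups (log2 fold change -1.91, SE 0.0869, edgeR adjusted p = 1.24e-35). Counted per library, the log2 ratio of Chek1 to Chek2 was -1.48 ± 0.121 in PluriSIn#2 and 0.65 ± 0.182 in DMSO (SD, n = 3 each), so the balance moved by 4.38-fold towards Chek2.

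Mdc1, the adaptor that binds phosphorylated histone H2AX beside a break, had 34.7, 33.6 and 33.5 CPM in PluriSIn#2 and 264, 265 and 264 CPM in DMSO. The groups were 7.80-fold apart, with SDs of 0.669 CPM in PluriSIn#2 and 0.965 CPM in DMSO (log2 fold change -2.96, SE 0.0377, edgeR adjusted p = 3.5e-78), and this was the smallest p of the 41 genes. Atm, activated at chromosome breaks, stood at 44.0, 45.7 and 41.8 CPM in PluriSIn#2 and at 123, 133 and 131 CPM in DMSO (log2 fold change -1.56, SE 0.0428, edgeR adjusted p = 6.68e-52). Atr, activated at stretches of unpaired DNA, stood at 27.0, 26.6 and 28.1 CPM in PluriSIn#2 and at 58.8, 64.0 and 63.0 CPM in DMSO (-1.19, SE 0.0550, edgeR adjusted p = 4.16e-35). Both were lower in each treated library than in any DMSO library. Within libraries the Atm to Atr ratio was lower in PluriSIn#2, the log2 ratio being 0.69 ± 0.102 in PluriSIn#2 and 1.06 ± 0.008 in DMSO (SD, n = 3 each). Per length, in the authors' FPKM, Mdc1 at 34.4 ± 0.152 had the highest level of these 5 genes in DMSO and Chek1 at 0.867 ± 0.0807 the lowest in PluriSIn#2.

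Other genes of damage signalling moved mostly the same way. Of 27 such genes tested 22 fell, none rose and 5 were not called, with a median log2 fold change of -0.85. Over all tested genes 40.9% fell, 41.7% rose and the median was 0.01. The smallest p-values were those of Topbp1, which activates Atr (-2.64, SE 0.0368, edgeR adjusted p = 5.21e-75), and H2afx, which encodes the histone variant that Mdc1 reads once it is phosphorylated (-3.14, SE 0.0447, edgeR adjusted p = 3.24e-74). H2afx had 21.6, 26.8 and 25.9 CPM in PluriSIn#2 and 221, 223 and 210.2 CPM in DMSO. The summed dividing-cell markers were at 97.9 to 107 CPM in PluriSIn#2 and 3493 to 3553 CPM in DMSO. As PluriSIn#2 and DMSO are the only groups, every gene that fell did so in the same libraries. Whether the falls in damage signalling and in dividing-cell markers are linked was not tested.

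**Figure D3:**
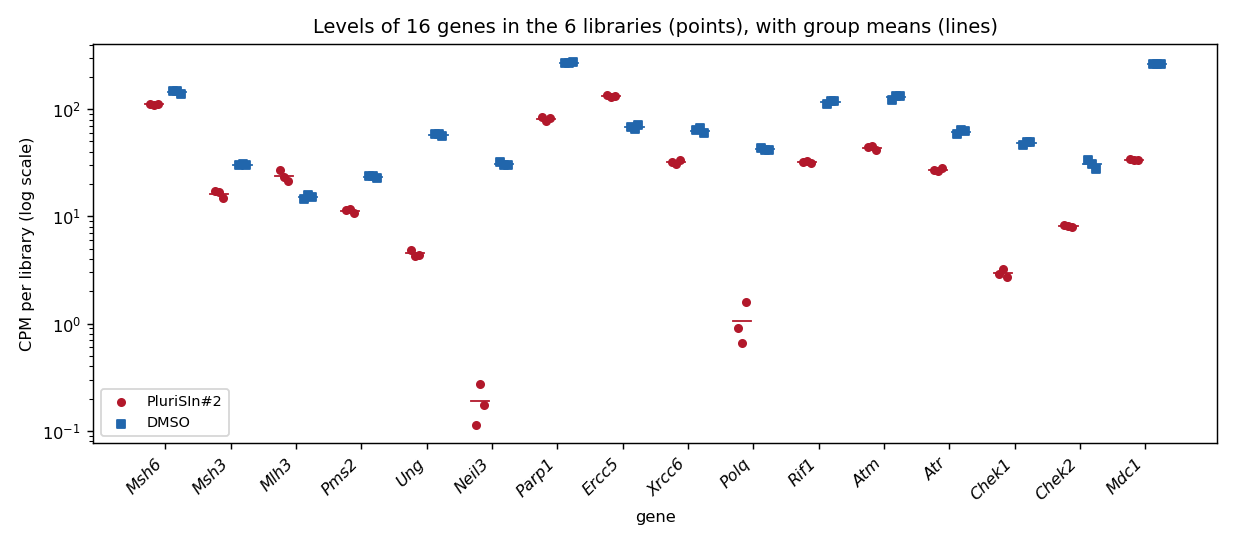
CPM per library on a log scale for selected repair genes in PluriSIn#2 (circles) and DMSO (squares), with lines at group means. The groups are apart for each gene shown, with Ercc5 and Mlh3 higher in PluriSIn#2 and the others lower.

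Base excision repair held both the largest fall and the largest rise of the 41 genes, those of Neil3 and Neil2. Both genes passed the filter on low counts only through the group where each was higher. Next in each direction were Polq of end joining (log2 fold change -5.34) and Ercc5 of nucleotide excision repair (0.96). The glycosylases of base excision repair, which detach the damaged base, were changed in their make-up. Neil3, a glycosylase for oxidised bases that also acts on unpaired DNA and on crosslinks at replication forks, had 0.113, 0.274 and 0.176 CPM in PluriSIn#2 and 32.1, 30.5 and 30.2 CPM in DMSO. The treated values rest on 10 reads over the 3 libraries, against 1683 in DMSO, a 158-fold fall (log2 fold change -7.31, SE 0.182, edgeR adjusted p = 3.26e-55). With so few treated reads the size is loose: the log2 fold change was -8.02 with PluriSIn#2 replicate 1 alone, and -6.19 and -3.71 in limma on log2(FPKM + 0.1) and log2(FPKM + 1), scales that understate the change of low genes. Neil3 passed the filter through its DMSO values alone. Ung, which removes uracil, had 4.91, 4.28 and 4.39 CPM in PluriSIn#2 and 58.3, 58.3 and 56.4 CPM in DMSO. Its fall was 12.7-fold (log2 fold change -3.67, SE 0.0820, edgeR adjusted p = 7.52e-59), and it lies on chromosome 5 from 114130386 to 114139323.

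Mutyh, which removes adenine paired with oxidised guanine, fell to 3.81 ± 0.780 CPM in PluriSIn#2 against 12.7 ± 0.575 CPM in DMSO (SD, n = 3 each; log2 fold change -1.74, SE 0.128). Ogg1, which removes the oxidised guanine itself, fell less, to 18.6 ± 1.55 CPM in PluriSIn#2 against 26.8 ± 1.29 CPM in DMSO (-0.53, SE 0.0741); 10.6% of its exonic bases overlap Camk1 on the other strand, and whether the counting used strand is not stated in the labels. Neil1, a glycosylase for oxidised pyrimidines, was near the threshold, with 12.0, 10.3 and 10.8 CPM in PluriSIn#2 and 14.3, 12.0 and 12.4 CPM in DMSO (-0.23, SE 0.0992, edgeR adjusted p = 0.0286). Its call was lost in 9 of the other settings, among them without PluriSIn#2 replicate 2 (edgeR adjusted p = 0.135), without PluriSIn#2 replicate 3 (0.0635), without DMSO replicate 1 (0.184) and with PluriSIn#2 replicate 1 alone (0.505).

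The remaining pair of glycosylases rose. Nthl1, which acts on oxidised pyrimidines, had 11.8, 11.6 and 11.4 CPM in PluriSIn#2 and 7.56, 8.94 and 6.61 CPM in DMSO (log2 fold change 0.59, SE 0.111, edgeR adjusted p = 1.27e-06). Neil2, which prefers lesions in bubbles and transcribed DNA, had 24, 21 and 15 reads in the PluriSIn#2 libraries and 2, 7 and 8 reads in the DMSO libraries, or 1.35, 1.15 and 0.878 CPM and 0.112, 0.394 and 0.427 CPM. The rise measured 1.83 on the log2 scale (SE 0.424, edgeR adjusted p = 6.41e-05). Neil2 passed the filter through its treated values alone, and so few reads leave the size of the rise loose.

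Per length, in FPKM, the 7 glycosylases summed to 37.8 ± 2.01 in PluriSIn#2 and 83.7 ± 2.15 in DMSO (SD, n = 3 each). Ung was the largest of them in DMSO and made up 6.37% ± 0.328 of the sum in PluriSIn#2 and 34.6% ± 0.0956 in DMSO. Neil3 made up 0.222% ± 0.0957 in PluriSIn#2 and 15.7% ± 0.444 in DMSO. The shares of Nthl1 (28.6% ± 1.07 in PluriSIn#2 and 8.17% ± 1.11 in DMSO), Neil1 (25% ± 1.78 in PluriSIn#2 and 12.6% ± 1.14 in DMSO) and Ogg1 (32.4% ± 1.499 in PluriSIn#2 and 20.2% ± 0.733 in DMSO) were larger in the treated cells. A larger share of a smaller sum is not a rise, as Ogg1 shows. For each of the 7 shares the exact permutation test gave p = 0.1, two-sided, the smallest that 3 against 3 libraries can give.

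**Figure D4:**
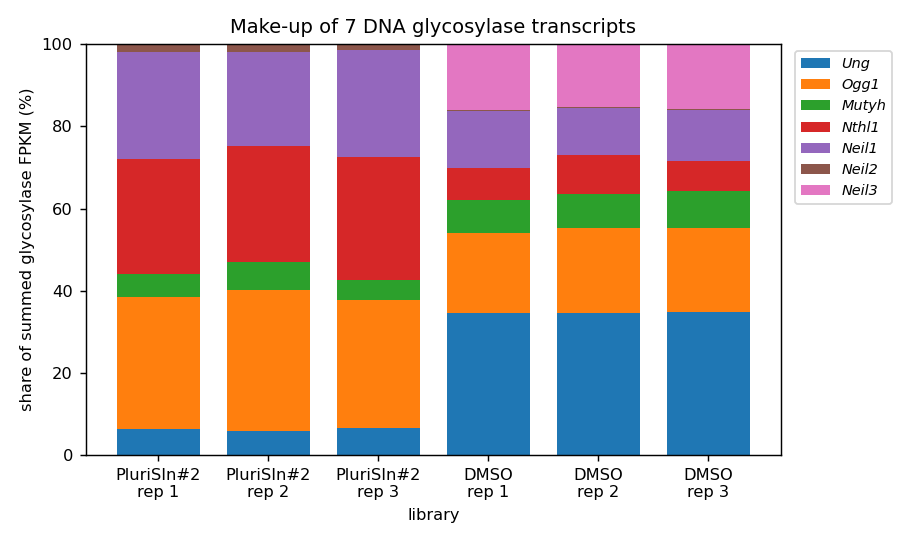
Share of each of 7 DNA glycosylase transcripts in their summed FPKM (%), one bar per library, PluriSIn#2 on the left and DMSO on the right. Ung and Neil3 together fill much of each DMSO bar and little of each PluriSIn#2 bar, where Ogg1, Nthl1 and Neil1 take up the most.

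Downstream of the glycosylases, the genes for strand incision, scaffolding and sealing fell, and the gap-filling polymerase did not. Apex1, the main endonuclease at abasic sites, had 9.47, 11.2 and 9.43 CPM in PluriSIn#2 and 23.8, 18.7 and 24.5 CPM in DMSO (log2 fold change -1.15, SE 0.0933, edgeR adjusted p = 4.41e-20). Apex2, its relative on the X chromosome, had 7.61, 6.91 and 7.67 CPM in PluriSIn#2 and 15.0, 13.6 and 15.0 CPM in DMSO (-0.98, SE 0.104, edgeR adjusted p = 2.62e-14). Both fell by close to the same factor, and their log2 ratio, 0.43 ± 0.224 in PluriSIn#2 and 0.61 ± 0.132 in DMSO, overlapped between groups in counts (difference -0.18, SE 0.150), though not in FPKM. Polb, the polymerase that fills the single-base gap, rose slightly, with 29.4, 32.4 and 30.1 CPM in PluriSIn#2 and 24.7, 29.2 and 26.3 CPM in DMSO (0.20, SE 0.0667, edgeR adjusted p = 0.00546). The call of Polb was lost without PluriSIn#2 replicate 2 (edgeR adjusted p = 0.0511), without DMSO replicate 1 (0.0685), with PluriSIn#2 replicate 1 alone (0.202) and in DESeq2 (0.0503).

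The scaffold gene Xrcc1 fell to 44.4 ± 2.18 CPM in PluriSIn#2 against 86.6 ± 2.02 CPM in DMSO (log2 fold change -0.96, SE 0.0460). Its partner ligase gene Lig3 had 43.8, 42.9 and 41.9 CPM in PluriSIn#2 and 88.2, 90.9 and 89.4 CPM in DMSO, a 2.09-fold fall (-1.06, SE 0.0453, edgeR adjusted p = 1.28e-37); 25.1% of its exonic bases overlap Rffl on the other strand. Parp1, the main sensor of nicks and breaks, had 84.4, 77.0 and 82.2 CPM in PluriSIn#2 and 273, 268 and 275 CPM in DMSO. Its fall was 3.35-fold (-1.75, SE 0.0328, edgeR adjusted p = 9.25e-65), and the gene spans chromosome 1 from 180568924 to 180601254. Parp2, which shares its catalytic role, had 21.9, 22.5 and 23.4 CPM in PluriSIn#2 and 37.1, 40.7 and 40.3 CPM in DMSO (-0.80, SE 0.0639, edgeR adjusted p = 1.83e-20). The Parp1 to Parp2 ratio was thus 1.92-fold lower in PluriSIn#2, with log2 ratios of 1.85 ± 0.089 in PluriSIn#2 and 2.79 ± 0.081 in DMSO (SD, n = 3 each).

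Of 15 other base excision genes tested 12 fell, 2 rose and 1 was not called (median log2 fold change -0.86), where 40.9% of all tested genes fell. The 2 falls with the smallest p were those of the replicative ligase gene Lig1 (-4.98, SE 0.0545, edgeR adjusted p = 2.37e-83) and the sliding clamp gene Pcna (-2.84, SE 0.0358, edgeR adjusted p = 1.82e-78), both of which also serve DNA replication. The risers were Parp3, a polymerase of ADP-ribose linked to break repair (1.38, SE 0.0809, edgeR adjusted p = 2.46e-28), and Aptx, which cleans blocked 5′ ends (0.58, SE 0.0654, edgeR adjusted p = 1.89e-13). Lig1 stood at 7.84, 7.02 and 6.09 CPM in PluriSIn#2 and at 225, 219 and 219 CPM in DMSO, so its fall was larger than that of Lig3. Pcna is also one of the 8 markers of dividing cells.

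The 4 mismatch repair genes did not move as 1 group. Msh6, whose protein recognises base mispairs and small loops, had 111, 110.1 and 113 CPM in PluriSIn#2 and 147, 149 and 139.7 CPM in DMSO, a fall of 1.301-fold (log2 fold change -0.38, SE 0.0342, edgeR adjusted p = 1.18e-17). Msh3, which recognises larger loops, had 17.4, 16.9 and 14.7 CPM in PluriSIn#2 and 30.1, 30.9 and 30.2 CPM in DMSO (-0.89, SE 0.0735, edgeR adjusted p = 1.19e-19). Msh6 and Msh3 compete for the same partner in yeast and mammals. Per length Msh6 was the more abundant in both groups, by 6.28 ± 0.579 times in PluriSIn#2 and 4.27 ± 0.183 times in DMSO (FPKM ratio, SD, n = 3 each).

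Pms2, the endonuclease subunit of the main MutL complex, had 11.4, 11.7 and 10.8 CPM in PluriSIn#2 and 24.0, 23.8 and 22.9 CPM in DMSO (log2 fold change -1.05, SE 0.0838, edgeR adjusted p = 1.83e-20). Mlh3, which forms a MutL complex best known from meiotic crossovers, rose, with 27.4, 23.3 and 21.4 CPM in PluriSIn#2 and 14.4, 15.97 and 15.2 CPM in DMSO (0.66, SE 0.0817, edgeR adjusted p = 9.1e-12). Their order was therefore turned round: per length the Mlh3 to Pms2 ratio was 1.24 ± 0.135 in PluriSIn#2 and 0.380 ± 0.0230 in DMSO. The log2 ratio of counts differed by 1.71 (SE 0.103), or 3.27-fold, which was the largest upward shift of the 10 pairs compared. Mlh3 spans chromosome 12 from 85234520 to 85270599, and Pms2 chromosome 5 from 143909964 to 143933968.

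Around these 4, of 13 other genes used in mismatch repair 12 fell and 1 rose (median log2 fold change -1.57), where 40.9% of all tested genes fell. All of the 13 but Exo1 and Pms1 were Pcna, Lig1 and genes of the Rfc and Pold families, which also serve DNA replication. That median is the value of Rfc3. Lig1 and Pcna had the smallest p among the 13 as well, and the riser was Pold4, the small subunit of polymerase delta, with 2.09, 2.52 and 2.28 CPM in PluriSIn#2 and 0.952, 1.18 and 1.12 CPM in DMSO (1.08, SE 0.262, edgeR adjusted p = 0.000131). Exo1, the exonuclease that removes the mismatched strand, had 0.508, 0.658 and 0.644 CPM in PluriSIn#2 and 55.8, 51.9 and 54.4 CPM in DMSO (-6.47); it was named after its value was seen.

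Nucleotide excision repair had the median nearest to 0. Ercc5, which encodes the nuclease XPG that cuts 3′ of the lesion, was the clear riser, with 135, 129.5 and 134 CPM in PluriSIn#2 and 68.5, 64.9 and 71.7 CPM in DMSO. The 1.94-fold rise was seen in each treated library (log2 fold change 0.96, SE 0.0387, edgeR adjusted p = 2.27e-39), and the gene spans chromosome 1 from 44147744 to 44181260. Ercc4, whose product XPF cuts on the 5′ side, rose by much less, with 41.8, 42.9 and 41.9 CPM in PluriSIn#2 and 38.5, 36.3 and 35.8 CPM in DMSO (0.19, SE 0.0558, edgeR adjusted p = 0.00117). Its partner Ercc1 was not called, at 25.8, 23.2 and 25.4 CPM in PluriSIn#2 and 23.9, 23.7 and 24.5 CPM in DMSO (95% interval of the log2 fold change -0.09 to 0.18). The 5′ to 3′ nuclease ratio, Ercc4 over Ercc5, was 1.70-fold lower in PluriSIn#2, the log2 ratios being -1.65 ± 0.053 in PluriSIn#2 and -0.89 ± 0.0965 in DMSO (SD, n = 3 each).

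Ercc8 and Ercc6, whose proteins CSA and CSB start repair at stalled RNA polymerase, both fell. Ercc8 had 9.42, 9.59 and 10.8 CPM in PluriSIn#2 and 19.0, 18.8 and 19.7 CPM in DMSO (log2 fold change -0.95, SE 0.0913, edgeR adjusted p = 3.09e-16). Ercc6 fell to 50.1 ± 1.53 CPM in PluriSIn#2 against 61.6 ± 1.31 CPM in DMSO (-0.30, SE 0.0478). Of the 2 helicase genes of TFIIH, Ercc3 fell to 36.9 ± 1.53 CPM in PluriSIn#2 against 47.4 ± 1.06 CPM in DMSO (-0.36, SE 0.0545), while Ercc2 was not called, with 43.3, 41.2 and 40.8 CPM in PluriSIn#2 and 41.5, 40.2 and 38.0 CPM in DMSO (95% interval -0.04 to 0.18). The damage verifier Xpa was not called either, with 9.59, 11.7 and 10.7 CPM in PluriSIn#2 and 11.1, 10.8 and 11.1 CPM in DMSO (95% interval -0.25 to 0.16). Of Ercc2's exonic bases 18.1% overlap other counted genes, mainly Klc3 on the other strand.

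Ddb1, the adaptor through which a ubiquitin ligase reaches ultraviolet lesions and many other substrates, was the most abundant of the 41 genes per length, at 136 ± 1.37 FPKM in PluriSIn#2 and 153 ± 0.330 FPKM in DMSO (SD, n = 3 each). It fell by 0.25 on the log2 scale (SE 0.0215), with 566, 557 and 563 CPM in PluriSIn#2 and 667, 666 and 670.2 CPM in DMSO. The SDs were 5.04 CPM in PluriSIn#2 and 2.42 CPM in DMSO, well under the difference. Of 21 other genes of nucleotide excision repair 14 fell, 4 rose and 3 were not called (median log2 fold change -0.26), where 40.9% of all tested genes fell. Rpa2 (-2.32, SE 0.0595, edgeR adjusted p = 3.92e-54) and Rpa1 (-1.18, SE 0.0325, edgeR adjusted p = 1.11e-51), subunits of the binding protein for unpaired DNA that replication uses too, had the smallest p among the falls. The risers with the smallest p were Cdk7, the kinase of TFIIH (0.53, SE 0.0433, edgeR adjusted p = 4.74e-20), and Xpc, the lesion sensor (0.50, SE 0.0648, edgeR adjusted p = 3.65e-11). Xpc had 32.8, 36.4 and 35.0 CPM in PluriSIn#2 and 23.3, 24.8 and 25.3 CPM in DMSO.

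Of the 9 end-joining genes 6 fell, and the 3 of the ligation step were not called. Polq, the polymerase of end joining at short homologies, had 0.902, 0.658 and 1.58 CPM in PluriSIn#2 and 43.6, 42.0 and 41.7 CPM in DMSO. Its treated values rest on 55 reads over 3 libraries, and the fall was 40.6-fold (log2 fold change -5.34, SE 0.125, edgeR adjusted p = 3.09e-57). Rif1, which protects ends from resection and also times replication, had 32.0, 32.7 and 31.3 CPM in PluriSIn#2 and 113, 119 and 120.4 CPM in DMSO (-1.87, SE 0.0459, edgeR adjusted p = 1.06e-55). Trp53bp1, which recruits Rif1, fell less, to 84.8 ± 0.907 CPM in PluriSIn#2 against 117 ± 1.58 CPM in DMSO (-0.46, SE 0.0371); 15.0% of its exonic bases overlap Tubgcp4 on the other strand. Polq spans chromosome 16 from 37011786 to 37095417, and Rif1 chromosome 2 from 52072832 to 52122383.

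The break-binding Ku pair fell unequally. Xrcc6, the Ku70 gene, had 32.3, 30.8 and 33.3 CPM in PluriSIn#2 and 63.7, 66.3 and 60.0 CPM in DMSO (log2 fold change -0.98, SE 0.0533, edgeR adjusted p = 2.33e-30). Xrcc5, the Ku80 gene, had 35.3, 36.8 and 37.9 CPM in PluriSIn#2 and 41.8, 46.6 and 45.6 CPM in DMSO (-0.29, SE 0.0561, edgeR adjusted p = 3.57e-06). The proteins work as a heterodimer, and per length their transcripts stood at a Ku80 to Ku70 ratio of 0.943 ± 0.0420 in PluriSIn#2 and 0.584 ± 0.0430 in DMSO (SD, n = 3 each). Prkdc, the large kinase that Ku recruits, fell to 40.1 ± 2.04 CPM in PluriSIn#2 against 58.2 ± 2.28 CPM in DMSO (-0.54, SE 0.0517).

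The 3 genes of the ligation step were not called. Lig4, the ligase, had 21.4, 16.7 and 19.2 CPM in PluriSIn#2 and 18.3, 16.4 and 18.3 CPM in DMSO (95% interval of the log2 fold change -0.06 to 0.28). It was called higher without PluriSIn#2 replicate 2 (log2 fold change 0.20, edgeR adjusted p = 0.033) and with PluriSIn#2 replicate 1 alone (0.28, edgeR adjusted p = 0.0224). Xrcc4, its scaffold, had 11.8, 12.5 and 13.4 CPM in PluriSIn#2 and 10.4, 11.5 and 12.2 CPM in DMSO (95% interval -0.05 to 0.34), and Nhej1, the filament partner of Xrcc4, had 3.21, 3.45 and 3.10 CPM in PluriSIn#2 and 3.42, 3.82 and 3.52 CPM in DMSO (95% interval -0.49 to 0.22). In all 3 the groups overlapped. Upper quartile factors, which moved the median of all tested genes to 0.12, led to Lig4 and Xrcc4 being called higher. Set against Lig3, which seals ends in the alternative route, Lig4 made up more in the treated cells: the log2 ratio of Lig3 to Lig4 was 1.17 ± 0.171 in PluriSIn#2 and 2.34 ± 0.109 in DMSO (SD, n = 3 each), 2.25-fold apart.

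Of 13 other end-joining genes tested 8 fell, 1 rose and 4 were not called (median log2 fold change -0.44), where 40.9% of all tested genes fell. The falls with the smallest p were Paxip1, a partner of Trp53bp1 (-1.32, SE 0.0449, edgeR adjusted p = 7.94e-45), and Rbbp8, which starts the resection of ends (-1.76, SE 0.0671, edgeR adjusted p = 3.46e-41). Aptx, which also serves base excision repair, was the riser. Over the 82 distinct other genes tested in the 5 pathways 64 fell, 7 rose and 11 were not called, with a median log2 fold change of -0.66. For all tested genes the shares were 40.9% lower and 41.7% higher, with a median of 0.01.

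Ratios of partner genes within a library do not depend on how libraries are scaled. In 9 of the 10 pairs compared the PluriSIn#2 and DMSO ratios of counts did not overlap, Apex1 over Apex2 being the exception. In the deposited FPKM that pair did not overlap either, with ratios of 3.11, 3.54 and 2.92 in PluriSIn#2 and 3.77, 3.77 and 4.00 in DMSO. No share over other pairs of genes was computed. Among single genes tested, 82.7% had groups that did not overlap, and whether such separation is particular to repair pairs was not tested. The largest shift was that of Neil3 over Neil1, with log2 ratios of -5.74 ± 0.663 in PluriSIn#2 and 1.26 ± 0.090 in DMSO, followed by Chek1 over Chek2. The Neil3 over Neil1 shift was -7.01 in counts, -6.50 with 2 added to each count and -6.03 in the deposited FPKM with 0.1 added. Each of the 9 gave p = 0.1 in the two-sided exact permutation test (adjusted p = 0.111 over the 10 pairs), the smallest value that 3 against 3 libraries allow, and Apex1 over Apex2 gave p = 0.3 in counts (exact permutation, difference -0.18, SE 0.150). No pair could therefore pass a threshold of 0.05 in this design.

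**Figure D5:**
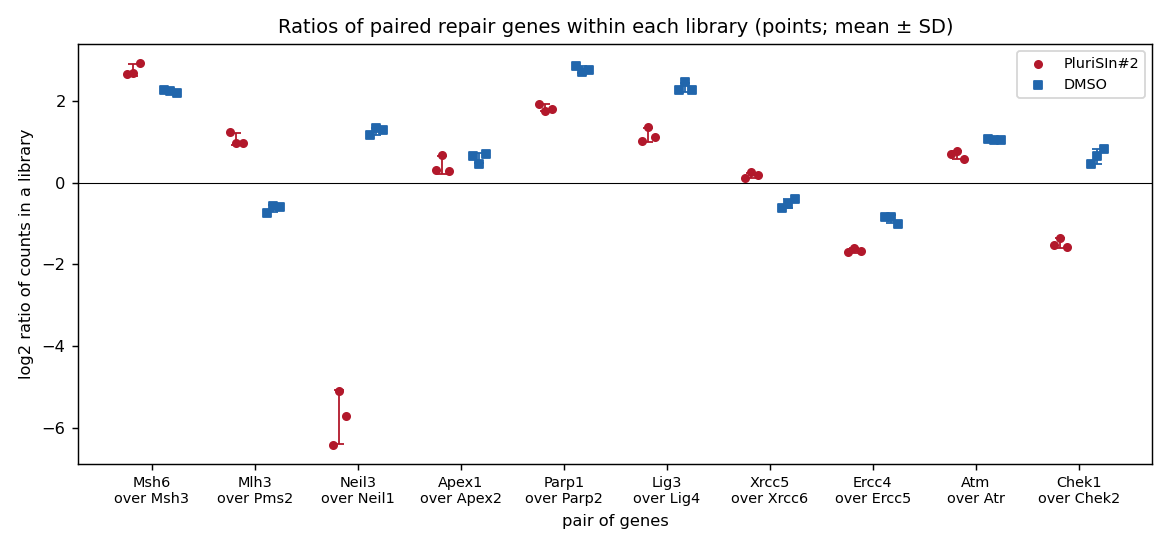
Log2 ratio of the counts of 2 repair genes within each library for 10 pairs, in PluriSIn#2 (circles) and DMSO (squares), with the mean ± SD over 3 libraries. The groups are apart in these count ratios for all pairs but Apex1 over Apex2, and Neil3 over Neil1 shifts the most, by -7.01 on the log2 scale.

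The span of a gene was set beside its change. Across the 41 genes, the log2 fold change had a Pearson correlation of -0.08 and a Spearman correlation of -0.10 with the log10 of the gene's span, beside -0.01 and -0.05 across 13878 tested genes; these are correlations across genes of the same 6 libraries, which are not independent replicates. Among the longer genes, Xrcc4 spans 315.6 kb and was not called, while Prkdc spans 204.4 kb and fell. Among the shorter ones, Ung spans 8.9 kb and fell 12.7-fold, while Nthl1 spans 6.2 kb and rose. Whether span plays a part in the changes was not tested. In the authors' deposited table, which reports their own test, 28 of the 41 genes were lower, 5 higher and 8 not called at an adjusted p under 0.05. The calls of 2 genes differed from those above, Neil1 and Polb, both not called there.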

How the data were processed

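Primary neural stem cells were profiled by RNA sequencing in 3 PluriSIn#2 and 3 DMSO libraries, grouped by their titles. STAR, HTSeq, DESeq and mm10 are named in the submitters' processing notes; no version, annotation or strand setting stands in the labels. The deposited table of counts holds whole-number read counts per gene symbol, not normalized. The deposited FPKM values were normalized for length and depth by the authors, and 25 entries whose names had become dates were left out. The same table carries the authors' log2 fold changes and the authors' p-values, raw and adjusted.

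Counts were tested in R 4.3.3 with edgeR 4.0.16 (filterByExpr, TMM factors, glmQLFit and glmQLFTest on 6 libraries, group as the only term, two-sided, Benjamini-Hochberg adjustment over 14417 genes). SE is the log2 fold change divided by the root of F. Ratios of genes used counts plus 0.5 and exact permutation tests in scipy 1.17.1. Alternatives used DESeq2 1.42.0 and limma 3.58.1. The functions were tested on simulated data. Named genes follow a rule: in each pathway the 2 largest called falls and rises, the genes of the ratios, and the 2 other genes with the smallest p in each direction. Spans come from GENCODE M21 and promoters from RefSeq (GRCm38.p6). The members and lists were chosen with earlier results of these data known. Pairs of replicates differed by more than sampling noise (chi-square per degree of freedom 1.56 to 2.22), so no library was treated as a second copy of another; this does not show that they came from separate cultures. Depth leaves genes under about 1 CPM measured in coarse steps.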

Additional observations from a re-analysis of the deposited data

How the results depend on the processing

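The count of repair genes called lower stayed at 28 or 29 in each of the 16 other settings, and the count called higher, 6 with TMM factors, was 10 with upper quartile factors, 9 with library totals and in each limma setting, and 5 or 6 in the others. With upper quartile factors Ercc1, Ercc2, Xrcc4 and Lig4 crossed the threshold, and that scaling moved the median of all genes to 0.12. Leaving out 1 library gave 5 to 6 higher and 28 to 29 lower repair genes, and 5880 to 5997 higher and 5797 to 5875 lower genes over the whole table. With library totals the share of higher among called genes was 54.8%, with upper quartile factors 57.2% and with limma on log2(FPKM + 1) 55.1%, beside 50.5% with TMM factors. Over these settings 31.2% to 41.8% of all tested genes were lower and 32.1% to 47.3% higher.

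Upper quartile factors gave pathway medians of -0.86 for base excision repair, 0.0606 for nucleotide excision repair, -0.35 for end joining and -1.80 for damage kinases. Limma on log2(FPKM + 1) gave -0.81, 0.0185, -0.32 and -1.59 in the same order, and with 0.1 added 0.0197 for nucleotide excision repair, -0.34 for end joining and -1.81 for damage kinases. Library totals gave 0.0232 for nucleotide excision repair and -0.39 for end joining, and PluriSIn#2 replicate 1 alone gave -0.20 for nucleotide excision repair. The median of all genes was 0.01 with TMM factors, 0.08 with library totals and 0.12 with upper quartile factors. Changing the scaling factors shifts the log2 fold changes of all genes by about the same amount. In limma it was 0.06 with 1 added and 0.09 with 0.1 added, and the reason for that was not tested. Without 1 library the medians ran from -0.66 to -0.61 (mismatch repair), -1.003 to -0.93 (base excision repair), -0.12 to 0.01 (nucleotide excision repair, positive without PluriSIn#2 replicate 1), -0.48 to -0.46 (end joining) and -1.98 to -1.85 (damage kinases). Xpa, whose value is that median, changed sign in the same settings: 0.0232 with library totals, 0.0606 with upper quartile factors, 0.0185 and 0.0197 in the limma settings and 0.0219 without PluriSIn#2 replicate 1, never called.

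All 10 ratios kept their direction in all 8 alternatives each; without 1 library, Neil3 over Neil1 ran from -7.33 to -6.67 and Apex1 over Apex2 from -0.30 to -0.11, and the deposited FPKM gave -6.03 for Neil3 over Neil1 and -0.29 for Apex1 over Apex2. In limma on log2(FPKM + 1) and log2(FPKM + 0.1), Polq was at -2.36 and -4.47, and with 1 added Chek1 was at -2.97 and Neil2 at 0.46, on scales that shrink low values. Replicate numbers did not pair the libraries: deviations of same-numbered libraries correlated at -0.003, 0.012 and -0.003, and 1 of 3 treated libraries correlated best with its own number. With a replicate block 5984 genes were higher and 5867 lower, and 6 and 29 of the repair genes. Few reads limit Neil2, Neil3 and Nhej1.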
